A study of Homo sapiens with 27 samples.

Results

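Enzymes that make the building blocks of DNA and RNA were followed by RNA-seq and by ribosome profiling in IMR90 cells, normal fibroblasts grown from human fetal lung. The set holds 9 genes named by symbol (RRM1, RRM2, TYMS, TK1, DUT, GGH, PAICS, CAD and DCK), of 60534 gene IDs present in all libraries. All 9 passed the filter on low counts in both assays. The cells were wild type and were grown in high-glucose DMEM with serum, in 5 states. Cycling cells, at 40 to 60% confluency, gave 2 RNA-seq and 3 Ribo-seq libraries. Quiescent cells, arrested by contact inhibition, gave 3 of each. Irradiated senescent cells (15 Gy, harvested after 10 days) and etoposide senescent cells (50 µM, given 3 times over 10 days) also gave 3 of each. Cycling cells given thapsigargin (25 nM for 3 h) gave 2 of each. Etoposide blocks topoisomerase II and so breaks DNA, and thapsigargin blocks the calcium pump of the endoplasmic reticulum. The medium of the thapsigargin cells was described without the antibiotics that the other states had, so medium and treatment cannot be told apart.

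A cell that copies its DNA needs every deoxynucleotide at once. Ribonucleotide reductase makes them from ribonucleotides, with RRM1 as the large subunit, which holds the active site, and RRM2 as the small subunit of S phase, which carries the radical. TYMS makes thymidylate from dUMP with a folate cofactor, DUT hydrolyses dUTP to dUMP and so keeps uracil out of DNA, and TK1 recovers thymidine in the cytosol. DCK recovers deoxycytidine and deoxypurines. PAICS carries out consecutive steps of purine synthesis, CAD starts pyrimidine synthesis, and GGH trims the glutamate tail of folates in the lysosome. Transcription of several of these genes is known to peak around S phase, and RRM2B is a small reductase subunit that p53 induces and that serves cells outside S phase.

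The promoters are shown first because S phase transcription is known to act through them. RefSeq promoter windows (GRCh38.p14) of 300 bases, 250 before and 50 after the most downstream start listed, were found for 8 of the 9 genes, the exception being GGH. Motifs were searched as fixed letters on both strands: CCAAT, the box that NF-Y binds, GCGGGAA and GCGCCAAA, variants of the E2F site, TTTGAA, the core of the cell cycle homology region, and CACGTG, an E-box. None of these motifs contains another. The window of RRM2 held 3 CCAAT matches and that of TK1 held 2, and 3.77% of all 15842 windows held 3 or more. The stretches around them are given 5′ to 3′ on the gene's strand, with the match in capitals (ATTGG is CCAAT read on the other strand). In RRM2 they lay 123, 93 and 66 bases before the start.
RRM2 chr2:10122610-10122633, plus strand: gcgcagCCAATgggaagggtcgga
RRM2 chr2:10122640-10122663, plus strand: gcacagCCAATgggaagggccggg
RRM2 chr2:10122667-10122690, plus strand: ccaaagCCAATgggaagggccggg
In TK1 they lay 77 and 46 bases before the start, and a GCGGGAA match lay at 12 bases.
TK1 chr17:78187112-78187135, minus strand: gcgctgATTGGccccatggcggcg
TK1 chr17:78187081-78187104, minus strand: ctcgtgATTGGccagcacgccgtg
TK1 chr17:78187053-78187070, minus strand: gtcggcGCGGGAAccagg
DUT held a GCGGGAA match 42 bases before its start and GCGCCAAA, in reverse (TTTGGCGC), at 27 bases, and the stretches shown overlap each other.
DUT chr15:48332149-48332172, plus strand: gggctgGCGGGAAatttcggtttt
DUT chr15:48332164-48332187, plus strand: ttcggtTTTGGCGCgctccctgcg

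TYMS, RRM1, CAD and DCK have 1 start each in the table, so for TYMS and CAD the 250 bases before it are shown whole, one with an E2F-like match near the start and one without.
TYMS chr18:657403-657652, plus strand: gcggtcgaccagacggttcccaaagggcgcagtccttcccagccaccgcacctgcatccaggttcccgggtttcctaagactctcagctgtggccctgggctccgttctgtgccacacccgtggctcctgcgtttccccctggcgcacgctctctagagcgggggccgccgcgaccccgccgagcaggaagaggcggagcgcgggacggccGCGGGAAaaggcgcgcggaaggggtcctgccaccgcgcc
CAD chr2:27217119-27217368, plus strand: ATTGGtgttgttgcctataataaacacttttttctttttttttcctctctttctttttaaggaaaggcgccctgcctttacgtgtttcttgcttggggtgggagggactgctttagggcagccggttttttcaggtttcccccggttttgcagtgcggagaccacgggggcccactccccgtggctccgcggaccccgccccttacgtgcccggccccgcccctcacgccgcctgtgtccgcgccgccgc
The single GCGGGAA of TYMS lay 39 bases before the start. CAD held none of the searched motifs but a reversed CCAAT at 250 bases. Over the 8 windows, GCGGGAA occurred in 6 (8.36% of all windows hold it), CCAAT in 4 (35.8%), GCGCCAAA in 2 (0.852%), TTTGAA in 2 (12.7%) and CACGTG in 1 (8.38%, the gene being DCK). These matches describe the letters only. Binding was not measured.

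Reads assigned to genes, in units of 1e+06, ranged from 20.6 to 57.1 per RNA-seq library and from 1.94 to 20.0 per Ribo-seq library, where the thapsigargin libraries were the shallowest. All 9 fibroblast markers had counts, summing to 8956 CPM or more in every RNA-seq library (CPM, read counts scaled per 1e+06 with TMM factors), and in Ribo-seq libraries to 34870 to 36970 CPM in cycling, 17620 to 37080 in quiescent, 22680 to 24900 after irradiation, 29570 to 31800 after etoposide and 12510 to 13040 after thapsigargin. The part of this spread in the footprint changes was not tested. In RNA, leukocyte and endothelial markers summed to at most 1.73 and 2.62 CPM. Epithelial markers summed to 59.2 to 116 CPM, and nearly all of those counts were in KRT8 and KRT18. Unmapped reads made up 1.35 to 1.40% of the thapsigargin RNA-seq reads against 27.9 to 40.6% in the other RNA-seq libraries. CPM values are not divided by gene length, so levels are compared between states for a gene and not between genes. Since these are bulk libraries, fewer cells that express a gene and less RNA per cell cannot be told apart.

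Most of these 9 enzymes fell in each arrested state against cycling cells, in RNA and in footprints. In quiescent cells 6 of the 9 mRNAs fell (edgeR adjusted p under 0.05), against 15.6% of all genes called in either direction and 10.4% called lower. In irradiated cells 8 of 9 fell, against 18.8% of all genes lower (34.9% called in all), and in etoposide cells 8 of 9 fell, against 17.8% lower (34.5% in all). CAD was the mRNA that was called in none of these. The median log2 fold change of the 9 was -0.88, -1.12 and -1.30 in quiescent, irradiated and etoposide cells, and that of all genes tested lay between 0.00 and 0.03. Of the footprints, 7 fell in quiescent cells (22.4% of all genes called, 14.2% lower), and all 9 fell in irradiated (40.6% called, 21.6% lower) and in etoposide cells (33.9% called, 17.1% lower). Median footprint changes of the 9 were -0.92, -1.59 and -1.82, beside 0.04, 0.03 and 0.01 for all genes. The 3 comparisons share the cycling libraries.

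Summed RNA of 12 cell cycle markers moved along with the members, with 1128 to 1240 CPM in cycling libraries, 531.5 to 803.5 in quiescent ones, 296 to 324 after irradiation and 299 to 320 after etoposide. Of these markers 8, 12 and 11 were called lower in RNA in the 3 arrested states. The part of cell cycle position in the members' fall was not tested.

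**Figure D1:**
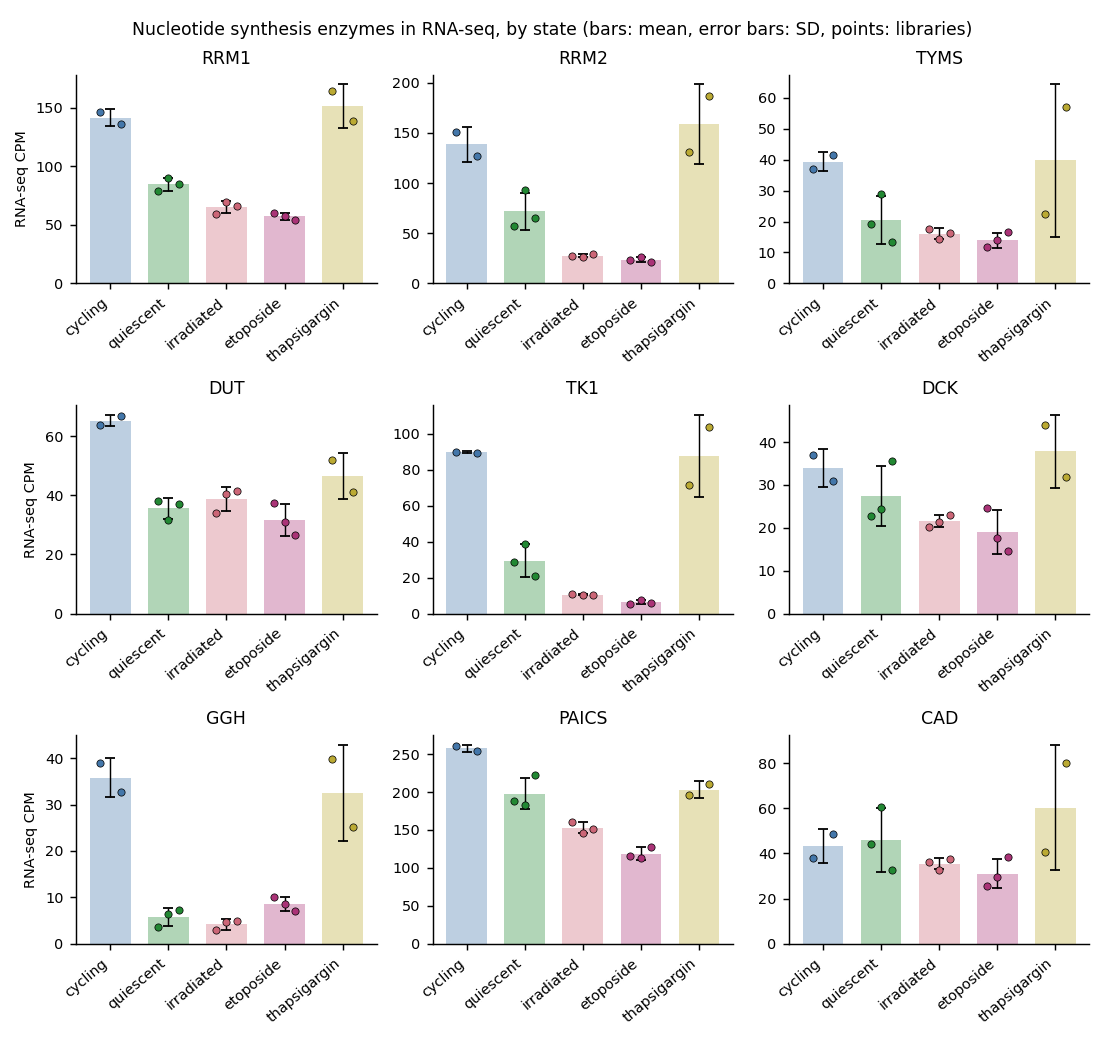
RNA-seq level of each enzyme gene in every library, in CPM on a linear axis from 0, by state; bars are state means, error bars SDs and points libraries. Cycling and thapsigargin libraries sit highest for TK1 and RRM2, quiescent ones between, and both senescent states lowest, with TK1 from 90.0 CPM in a cycling library down to 5.42 in an etoposide library.

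RRM2, the S phase subunit of the reductase, stepped down from cycling to quiescent to senescent cells. RRM2 mRNA (ENSG00000171848, chromosome 2, 10122568 to 10211010) was at 151.0 and 126.5 CPM in cycling cells, at 57.5, 92.7 and 65.4 in quiescent cells, at 26.8, 26.2 and 29.5 in irradiated cells and at 23.4, 25.9 and 21.3 in etoposide cells. No quiescent library reached the cycling ones, and no senescent library reached the quiescent ones. Against cycling cells the log2 fold change was -0.95 ± 0.19 (SE; edgeR adjusted p = 0.00518) in quiescent, -2.34 ± 0.20 (adjusted p = 1.4e-06) in irradiated and -2.56 ± 0.20 (adjusted p = 4.14e-07) in etoposide cells, the last being 5.90-fold lower. Leaving out cycling replicate 1 put the quiescent difference at -0.82 (adjusted p = 0.0752). RRM2 footprints were at 190.4, 163.5 and 193.4 CPM in cycling, 76.6, 125.5 and 87.2 in quiescent, 29.8, 28.1 and 29.3 after irradiation and 29.3, 30.8 and 17.8 after etoposide. The footprint levels thus fell in the same steps, by 6.26-fold after irradiation and 7.01-fold after etoposide (adjusted p = 6.93e-07 and 2.21e-07). Pseudogenes named for RRM2 number 3 in RefSeq and 3 other annotated genes overlap its span, so part of its reads could have been left out of its count.

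RRM1, the catalytic partner (ENSG00000167325, chromosome 11, 4094685 to 4138932), fell in all 3 arrested states as well. Its mRNA was at 146.3 and 136.3 CPM in cycling, 78.95, 89.5 and 84.6 in quiescent, 59.5, 69.0 and 66.4 after irradiation and 60.2, 57.7 and 54.0 after etoposide, and the arrested states did not overlap the cycling one. The log2 fold changes were -0.74 ± 0.11 (edgeR adjusted p = 0.00127), -1.12 ± 0.11 (adjusted p = 7.87e-06) and -1.30 ± 0.11 (adjusted p = 1.54e-06). RRM1 footprints, at 402.3, 354.1 and 323.8 CPM in cycling cells, were at 226.5, 306.1 and 190.8 in quiescent cells and between 130.1 and 166.9 in all 6 senescent libraries. Their fall was 1.49-fold in quiescent (adjusted p = 0.0127), 2.29-fold in irradiated and 2.64-fold in etoposide cells (adjusted p = 3.94e-05 and 8.42e-06). The quiescent footprint call was lost without cycling replicate 1 (adjusted p = 0.0523) and when these 2 states were fitted alone (adjusted p = 0.0711).

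RRM2B, the small subunit induced by p53, rose in senescent cells. The mRNA was at 110.7 and 106 CPM in cycling cells and at 241.4 to 261.5 in irradiated and 260.4 to 295.4 in etoposide cells, with quiescent libraries between, at 130 to 142.3. Its mRNA had log2 rises of 1.22 ± 0.14 in irradiated (edgeR adjusted p = 2.59e-05) and 1.34 ± 0.14 in etoposide cells (adjusted p = 1.09e-05), while the quiescent value of 0.34 did not pass (adjusted p = 0.129). RRM2B footprints rose in all 4 states, by 0.55 in quiescent, 1.28 in irradiated, 1.29 in etoposide and 0.55 in thapsigargin cells (adjusted p = 0.00193, 6.23e-07, 3.76e-07 and 0.00264). The thapsigargin value compares libraries counted on different gene lists.

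**Figure D2:**
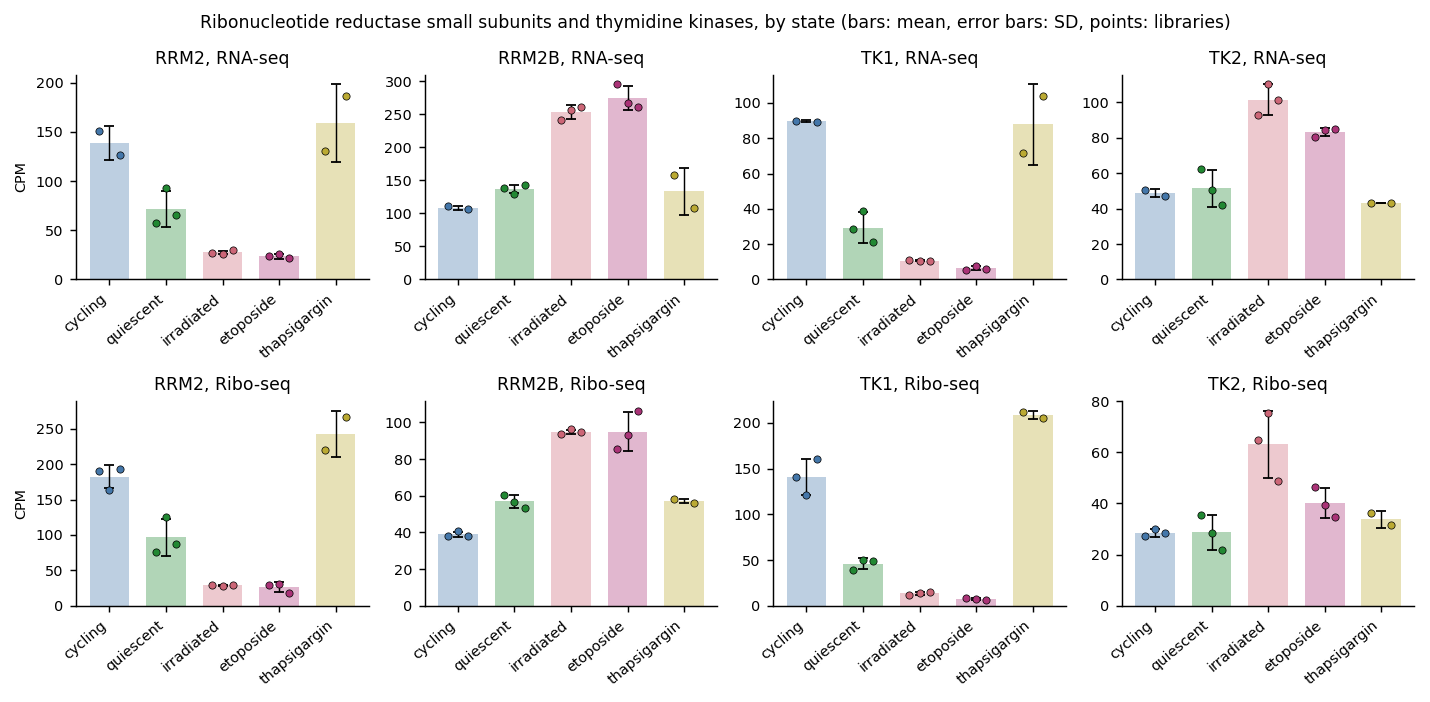
Levels of RRM2, RRM2B, TK1 and TK2 in every RNA-seq and Ribo-seq library, in CPM on a linear axis from 0, by state; bars are state means, error bars SDs and points libraries. RRM2 and TK1 drop from cycling to senescent libraries, where RRM2B lies at 241 to 295 CPM in RNA against 106 to 111 in cycling libraries.

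TK1, the thymidine kinase of the cytosol, had the lowest log2 fold change of the 9 in etoposide cells, in RNA and in footprints. Its mRNA (ENSG00000167900, chromosome 17, 78174079 to 78187204) was at 90.0 and 89.2 CPM in cycling cells, 28.4, 38.9 and 20.9 in quiescent, 10.8, 10.5 and 10.3 after irradiation and 5.42, 7.55 and 5.75 after etoposide, and no 2 of these states overlapped. The log2 fold changes from cycling cells were -1.61 ± 0.22 (edgeR adjusted p = 0.000787), -3.09 ± 0.23 (adjusted p = 5.26e-07) and -3.84 ± 0.24 (adjusted p = 6.08e-08), that is 3.05-fold, 8.5-fold and 14.3-fold lower. Footprints of TK1 followed, at 140.9, 120.8 and 160.3 CPM in cycling, 39.2, 50.1 and 48.7 in quiescent, 12.1, 13.7 and 15.4 after irradiation and 8.55, 7.59 and 6.73 after etoposide. They were 3.06-fold, 10.3-fold and 18.4-fold lower than in cycling cells (adjusted p = 2.2e-05, 3.8e-09 and 3.49e-10).

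TK2, the thymidine kinase of mitochondria, rose in RNA in both senescent states. TK2 mRNA was at 47.2 and 50.5 CPM in cycling cells, at 92.7 to 110.2 in irradiated and at 80.6 to 84.9 in etoposide cells, with log2 rises of 1.05 ± 0.15 (edgeR adjusted p = 0.000136) and 0.77 ± 0.15 (adjusted p = 0.00143). TK2 footprints rose by 1.14 in irradiated cells (adjusted p = 0.000437), and the value in etoposide cells, 0.49, did not pass (adjusted p = 0.0651). The mitochondrial deoxyguanosine kinase DGUOK showed no called change in RNA, with log2 values from -0.29 to 0.14 over the 4 states against cycling. DGUOK footprints were lower by 1.07 in thapsigargin cells (adjusted p = 0.0111), a comparison across gene lists. SAMHD1, which breaks down deoxynucleotide triphosphates, was called in neither assay against cycling cells, its RNA values being 0.20, 0.12, -0.05 and -0.19 in quiescent, irradiated, etoposide and thapsigargin cells.

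TYMS mRNA (ENSG00000176890, chromosome 18, 657653 to 673578) was at 37.1 and 41.5 CPM in cycling cells, 19.3, 28.9 and 13.3 in quiescent, 17.7, 14.2 and 16.4 after irradiation and 11.6, 13.9 and 16.5 after etoposide. All arrested libraries lay below both cycling ones, and the senescent range overlapped the quiescent one. TYMS mRNA fell by 1.29 ± 0.34 in irradiated (log2; edgeR adjusted p = 0.00982) and by 1.49 ± 0.34 in etoposide cells (adjusted p = 0.00422), and the quiescent value of -0.94 ± 0.34 missed the threshold (adjusted p = 0.0805). Without quiescent replicate 2, the highest of its group, that value was -1.25 (adjusted p = 0.0291), with DESeq2 it passed (adjusted p = 0.0349), and without cycling replicate 2 the irradiated call was lost (adjusted p = 0.0612). Footprints of TYMS were less scattered: 127, 132.3 and 156.4 CPM in cycling, 62.9, 80.1 and 69.9 in quiescent, 46.1, 37.6 and 48.1 after irradiation and 39.6, 39.7 and 38.5 after etoposide. They fell in all 3 states, by 0.97, 1.65 and 1.82 on the log2 scale (adjusted p = 0.000424, 1.13e-06 and 2.67e-07). The span of TYMS overlaps TYMSOS and ENOSF1 in RefSeq, and RefSeq names 2 pseudogenes for it.

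DUT, which removes dUTP, fell in both assays in all 3 arrested states. DUT mRNA (ENSG00000128951, chromosome 15, 48331095 to 48343373) was at 63.9 and 66.7 CPM in cycling cells, 38.1, 31.6 and 37.1 in quiescent, 34.1, 40.4 and 41.6 after irradiation and 37.4, 31.0 and 26.7 after etoposide. The arrested states lay below both cycling libraries and overlapped one another, with log2 fold changes of -0.88 ± 0.16, -0.76 ± 0.16 and -1.05 ± 0.16 (edgeR adjusted p = 0.00307, 0.0025 and 0.00022). Footprints of DUT were at 119.2, 115.2 and 137.9 CPM in cycling, 53.5, 64.3 and 60.4 in quiescent, 40.6, 44.1 and 38.8 after irradiation and 26.7, 27.3 and 33.3 after etoposide. Here the states did not overlap, and the falls were 2.09-fold, 3.02-fold and 4.27-fold (adjusted p = 0.00016, 4.7e-07 and 2.09e-08). DUT overlaps the antisense gene DUT-AS1 and has 8 pseudogenes named for it in RefSeq, so reads from its copies are uncertain.

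GGH, the folate hydrolase (ENSG00000137563, chromosome 8), had the lowest log2 fold change of the 9 in quiescent cells, in both assays. Its mRNA was at 38.9 and 32.8 CPM in cycling cells, 3.55, 6.38 and 7.22 in quiescent, 2.88, 4.61 and 4.95 after irradiation and 10.1, 8.497 and 7.09 after etoposide. Quiescent and irradiated libraries overlapped, and the etoposide libraries lay above the irradiated ones. GGH was 6.28-fold lower than in cycling cells in quiescent, 8.64-fold lower in irradiated and 4.19-fold lower in etoposide cells (edgeR adjusted p = 0.00029, 4.96e-06 and 0.000102). Footprints of GGH were at 48.2, 50.2 and 55.3 CPM in cycling, 3.31, 10.7 and 10.5 in quiescent, 2.31, 4.56 and 4.06 after irradiation and 9.59, 12.6 and 9.67 after etoposide. Those falls were 6.30-fold, 14.9-fold and 4.82-fold (adjusted p = 0.000324, 8.91e-06 and 0.000173), and the irradiated libraries held only 12 to 14 footprints each.

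DCK, the deoxycytidine kinase (ENSG00000156136, chromosome 4, 70993649 to 71030914), fell in the footprints of all 3 arrested states and in senescent RNA. DCK mRNA was at 37.0 and 30.9 CPM in cycling cells, 22.7, 24.4 and 35.5 in quiescent, 20.3, 21.4 and 23.0 after irradiation and 24.6, 17.6 and 14.7 after etoposide, so that quiescent cells overlapped cycling cells and senescent cells did not. The log2 values were -0.31 ± 0.23 (edgeR adjusted p = 0.434), -0.66 ± 0.23 (adjusted p = 0.0414) and -0.84 ± 0.23 (adjusted p = 0.0125). Leaving out any 1 of the 5 cycling and irradiated libraries ended the irradiated RNA call (adjusted p from 0.0701 to 0.257), and leaving out cycling replicate 1 ended the etoposide call (adjusted p = 0.117). DCK footprints, at 74.1, 76.95 and 70.7 CPM in cycling cells, were at 49.9, 58.2 and 39.7 in quiescent, 42.2, 32.7 and 39.1 after irradiation and 46.1, 36.7 and 30.0 after etoposide, all lower. They fell by 0.59, 0.95 and 0.98 on the log2 scale (adjusted p = 0.0256, 0.00101 and 0.000805), and the quiescent call was lost without any 1 of the cycling replicates or without quiescent replicate 3 (adjusted p from 0.0588 to 0.0775).

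PAICS, of purine synthesis (ENSG00000128050, chromosome 4, 56410507 to 56464578), fell in senescent cells in both assays. Its mRNA was at 260.8 and 254.2 CPM in cycling cells, 188.6, 183.3 and 222 in quiescent, 160.7, 146.5 and 151.5 after irradiation and 115.4, 112.7 and 128.1 after etoposide, with no overlap between any 2 of these states. The log2 fold changes were -0.38 ± 0.11 (edgeR adjusted p = 0.0341), -0.75 ± 0.11 (adjusted p = 0.000163) and -1.12 ± 0.11 (adjusted p = 4.89e-06). The quiescent call was lost without cycling replicate 1 or 2 or without quiescent replicate 1 or 2 (adjusted p from 0.0818 to 0.202), without the filter on low counts (0.0572) and with these states alone (0.14). PAICS footprints were at 261.1, 260.3 and 271.3 CPM in cycling, 207.7, 230.3 and 194.1 in quiescent, 155, 168 and 174.1 after irradiation and 128.9, 132.2 and 142.1 after etoposide. They fell 1.60-fold and 1.97-fold in the senescent states (adjusted p = 0.000773 and 3.92e-05), and the quiescent value of -0.33 did not pass (adjusted p = 0.0714; with DESeq2 0.0317). PAICS overlaps PPAT, which encodes the first enzyme of the same pathway, and RefSeq names 7 pseudogenes for it.

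CAD, of pyrimidine synthesis (ENSG00000084774, chromosome 2, 27217369 to 27243943), was the member called in neither assay in quiescent cells. CAD mRNA was at 38.1 and 48.7 CPM in cycling cells, 44.0, 60.8 and 32.8 in quiescent, 36.2, 32.9 and 37.5 after irradiation and 25.5, 29.6 and 38.3 after etoposide. The arrested states overlapped one another, the irradiated libraries lay just below both cycling ones, and the log2 values of 0.08, -0.29 and -0.48 did not pass (edgeR adjusted p = 0.89, 0.468 and 0.211). The irradiated RNA value passed with these states fitted alone (-0.31, adjusted p = 0.0385). CAD footprints were at 119, 99.2 and 101.5 CPM in cycling and at 111, 143.8 and 138.9 in quiescent libraries, but at 60.7, 67.7 and 66.4 after irradiation and 70.8, 65.4 and 66.6 after etoposide. The footprints fell 1.65-fold and 1.58-fold in the senescent states (adjusted p = 0.000314 and 0.000596), with no overlap, and the quiescent value was 0.30 ± 0.11 (adjusted p = 0.0715). That quiescent value passed with DESeq2 (adjusted p = 0.0431) and without quiescent replicate 1 (0.39, adjusted p = 0.02).

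**Figure D3:**
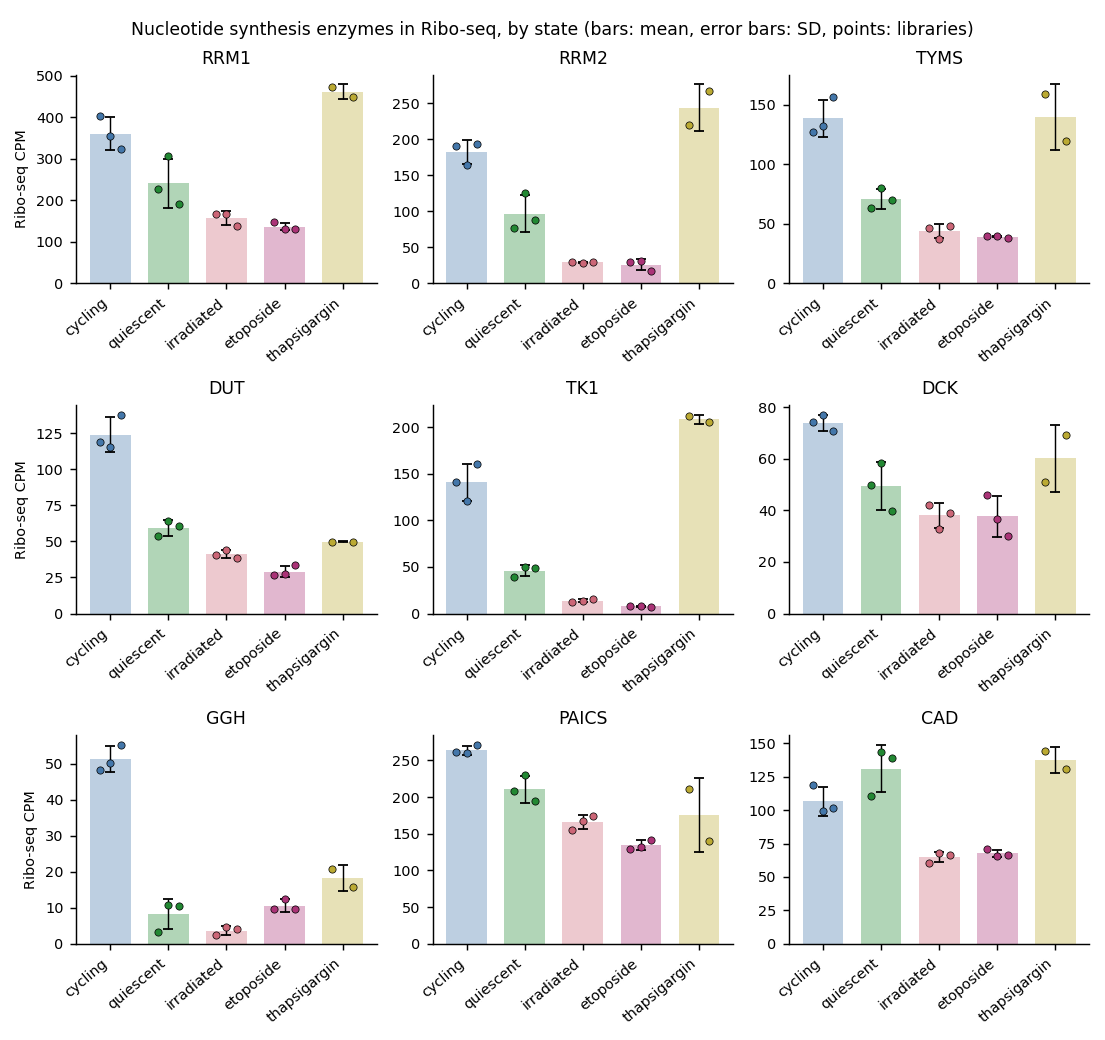
Ribosome footprint level of each enzyme gene in every Ribo-seq library, in CPM on a linear axis from 0, by state; bars are state means, error bars SDs and points libraries. CAD stands at 99.2 to 143.8 CPM in cycling and quiescent libraries and at 60.7 to 70.8 in senescent ones, and DUT steps down from cycling to quiescent, irradiated and etoposide libraries.

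Senescent cells were also compared with quiescent cells, arrested by contact. Of the 12 cell cycle markers, 10 were called lower in RNA in irradiated cells and 11 in etoposide cells. In footprints 11 were called lower in each. The part of cell cycle position in the members' differences from quiescent cells was not tested. RRM2, TK1, RRM1 and PAICS mRNAs fell in both senescent states. These are 4 of 9 in irradiated cells, where 9.71% of all genes were called lower (18.7% called in all), and 4 of 9 in etoposide cells, where 20.6% were lower (41.7% in all). TK1 was 2.79-fold lower than in quiescent cells after irradiation (edgeR adjusted p = 0.000321) and 4.71-fold lower after etoposide (adjusted p = 5.45e-06). RRM2 was 2.61-fold and 3.06-fold lower (adjusted p = 0.000153 and 1.73e-05). RRM1 was lower by 0.38 and 0.56 and PAICS by 0.37 and 0.74 on the log2 scale (edgeR adjusted p = 0.0238 and 0.000883 for RRM1, 0.0205 and 8.31e-05 for PAICS). The irradiated calls of these last 2 were lost when some libraries were left out: RRM1 was lost without quiescent replicate 2 or irradiated replicate 1 or 3 (adjusted p from 0.062 to 0.104), and PAICS without quiescent replicate 3 or irradiated replicate 2 or 3 (0.0648 to 0.0801). The RNA of TYMS, DUT, GGH, CAD and DCK did not pass in either contrast, and that of DCK in etoposide cells passed with DESeq2 (-0.51, adjusted p = 0.0498). The RNA median of the 9 was -0.37 and -0.56 in these contrasts, beside 0.01 and -0.02 for all genes.

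In footprints, 6 of 9 members fell in irradiated against quiescent cells (14.6% of all genes called, 7.35% lower), and 7 of 9 fell in etoposide against quiescent cells (35.8% called, 16.8% lower). CAD footprints were 2.03-fold and 1.94-fold lower than in quiescent cells (edgeR adjusted p = 5.8e-05 and 3.34e-05) and its mRNA did not pass, at -0.37 and -0.56 on the log2 scale (adjusted p = 0.35 and 0.0946). Whether footprints and mRNA changed unequally was tested only against cycling cells. There CAD was not called, at log2 values of -0.35 in irradiated and -0.23 in etoposide cells. DUT footprints fell by 0.53 and 1.03 (adjusted p = 0.00971 and 2.79e-05), TYMS footprints by 0.68 and 0.85 (adjusted p = 0.00467 and 0.000342) and RRM1 footprints by 0.62 and 0.82 (adjusted p = 0.0137 and 0.00083). The irradiated RRM1 call was lost without quiescent replicate 2 (adjusted p = 0.0651) or irradiated replicate 3 (0.0711) and with these states fitted alone (0.0561). GGH footprints in irradiated cells, at -1.24 (adjusted p = 0.0753), passed without quiescent replicate 1, the lowest of its group (-1.65, adjusted p = 0.000282), and with DESeq2 (adjusted p = 0.0287). PAICS footprints there passed with DESeq2 (adjusted p = 0.0464) and without the filter on low counts (0.0264) only. RRM1, RRM2 and TK1 were the 3 members called lower than in quiescent cells in both senescent states and both assays. Against cycling cells 8 members were called lower in both states and both assays, CAD being the exception. The share of all genes called lower in every one of these tests was not computed. The tests share the quiescent or the cycling libraries, so they are not separate evidence.

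**Figure D4:**
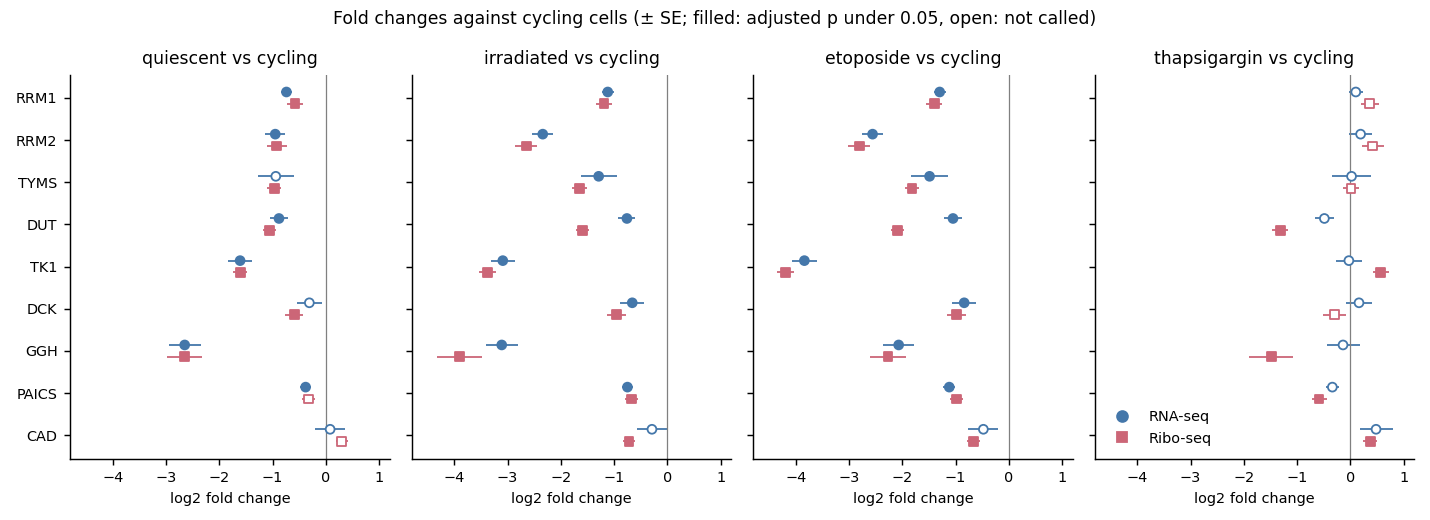
Log2 fold change with its standard error for each enzyme gene in RNA and in ribosome footprints, for the 4 other states against cycling cells; filled points were called (adjusted p under 0.05), open points were not, and 0 means no difference. TK1 reaches -3.84 in RNA and -4.20 in footprints in etoposide against cycling cells, and values for thapsigargin lie on both sides of 0.

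Between the 2 senescent states 3 of the 9 members were called in each assay. In RNA, TK1 was higher in irradiated than in etoposide cells by 0.76 ± 0.22 (log2; edgeR adjusted p = 0.0226) and PAICS by 0.36 ± 0.10 (adjusted p = 0.0188), and GGH was lower by 1.05 ± 0.28 (adjusted p = 0.0159). That makes 3 of 9, 2 higher and 1 lower, against 22.6% of all genes called (9.68% higher, 12.9% lower), a share near the background. In footprints TK1 was higher by 0.83 ± 0.18 (adjusted p = 0.00483), DUT was higher by 0.50 ± 0.13 (adjusted p = 0.0127) and GGH was lower, at -1.63 ± 0.45 (adjusted p = 0.0182), again 3 of 9, against 22.5% of all genes (8.82% higher, 13.7% lower). The median of the 9 was 0.20 in RNA and 0.17 in footprints, beside 0.06 in each for all genes. TK1 and GGH kept their direction in both assays. The RNA call of TK1 was lost without any 1 of 5 of the 6 libraries, the exception being etoposide replicate 2 (adjusted p from 0.0573 to 0.082), whereas its footprint call held whichever library was left out. The RNA call of PAICS was lost in 4 of 6 such fits (0.0549 to 0.0892), that of GGH without irradiated or etoposide replicate 1 (0.0806 and 0.0574) and the footprint call of GGH without irradiated replicate 1 (0.115). The DUT footprint call was lost without irradiated or etoposide replicate 1 or 2 (0.0552 to 0.0806).

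Thapsigargin for 3 h left the mRNAs of these enzymes without a called change. In RNA 0 of 9 were called by edgeR (2 at an unadjusted p under 0.05, 2 by DESeq2), against 24.5% of all genes, and their median was 0.02 beside -0.03 for all genes. DUT mRNA, at 52.1 and 41.2 CPM, and PAICS mRNA, at 195.6 and 210.9, lay below both cycling libraries, with log2 values of -0.49 ± 0.18 (edgeR adjusted p = 0.0613) and -0.34 ± 0.12 (adjusted p = 0.0587). These are the 2 genes that DESeq2 called (adjusted p = 0.0481 and 0.0377). The replicates differed: TYMS was at 22.4 and 57.2 CPM, CAD at 40.7 and 80.0 and RRM2 at 130.6 and 186.7, and the ranges of these 3 genes overlapped or enclosed the cycling libraries. Without thapsigargin replicate 1, DUT was at -0.66 (adjusted p = 0.0313) and CAD at 0.90 (adjusted p = 0.0433). Cell cycle markers summed to 1103 to 1118 CPM, just under the cycling libraries.

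In footprints of the same cells, members were called in both directions. In thapsigargin against cycling cells 5 of 9 members were called, 3 lower and 2 higher, against 44.6% of all genes (23.6% lower, 21.1% higher), so the share is near the background, and the median was 0.01 beside -0.08 for all genes. DUT footprints were at 49.9 and 49.4 CPM against 115.2 to 137.9 in cycling cells, 2.50-fold lower (edgeR adjusted p = 1.48e-05). GGH was at 20.8 and 15.8 CPM against 48.2 to 55.3, 2.80-fold lower (adjusted p = 0.011), and PAICS at 211.5 and 140.2 against 260.3 to 271.3, 1.5-fold lower (adjusted p = 0.0049). All 3 genes had both thapsigargin libraries below every cycling library, and the share of all genes that did so was not computed. TK1 footprints, at 212 and 205.3 CPM, lay above every cycling library and were 1.48-fold higher (adjusted p = 0.0066). CAD footprints, at 144.6 and 130.8 CPM, were 1.29-fold higher (adjusted p = 0.0341). The CAD call was lost without cycling replicate 2 or 3 or thapsigargin replicate 1 (adjusted p from 0.0868 to 0.23), without the filter on low counts (0.151) and with these states alone (0.109), and the GGH call without thapsigargin replicate 2 (0.08). RRM1, RRM2, TYMS and DCK did not pass, at 0.36, 0.42, 0.01 and -0.30 on the log2 scale.

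These Ribo-seq libraries were counted on 62703 gene IDs, and Ribo-seq of every other state on 60664. Where the 2 annotations draw a gene differently, the same reads can give it different counts, and the part of the lists in the thapsigargin footprint changes was not tested. IMPDH2, of guanine nucleotide synthesis, shows the size such a gap can have: it held 540 to 4393 footprints in the 12 libraries on the shorter list, 0 in both thapsigargin Ribo-seq libraries and 0 to 34 reads in the 13 RNA-seq libraries on the longer list. IMPDH2 was named after its counts were seen, and no fold is given for it. Multimapping reads, which match several places and enter no gene count, made up 65.2 and 66.9% of the thapsigargin Ribo-seq reads. In the other Ribo-seq libraries they made up 19.8 to 31.9%. DUT and PAICS have 8 and 7 pseudogenes named for them. The part of multimapping in the thapsigargin footprint changes was not tested.

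Translational efficiency (TE), the ratio of footprints to mRNA, was tested by an interaction term for assay and state. It asks whether footprints and mRNA changed unequally. For most members no such difference was called. In quiescent cells 0 of 9 were called by edgeR (0 at an unadjusted p under 0.05 and 0 by DESeq2), against 0.00854% of all genes, with log2 TE changes from -0.18 to 0.31. In irradiated cells 0 of 9 were called (1 at an unadjusted p under 0.05 and 1 by DESeq2), against 0.0512%, with values from -0.75 to 0.16. In etoposide cells 1 of 9 was called, against 0.0683% (0.0427% lower), with values from -1.10 to 0.09. In thapsigargin cells 1 of 9 was called, against 20.7% (12.8% lower), with values from -1.40 to 0.55. Median TE changes of the 9 and of all genes were 0.08 and 0.08 in quiescent cells, -0.22 and 0.07 after irradiation, -0.25 and -0.03 after etoposide, and -0.16 and -0.15 after thapsigargin.

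DUT was the member called in both etoposide and thapsigargin cells. With a replicate block both calls were lost (-1.01, edgeR adjusted p = 0.305, and -0.79, adjusted p = 0.0535). GGH in thapsigargin cells gained a call with the block (-1.33, adjusted p = 0.0135). The mean log2 footprint CPM of DUT less its mean log2 RNA CPM was 0.92 in cycling cells and 0.74 in quiescent cells. This difference was 0.10 after irradiation, -0.11 after etoposide and 0.10 after thapsigargin. The TE change of DUT was -0.10 ± 0.20 in quiescent (edgeR adjusted p = 1), -0.75 ± 0.21 in irradiated (adjusted p = 0.311), -1.10 ± 0.21 in etoposide (adjusted p = 0.0336) and -0.89 ± 0.23 in thapsigargin cells (adjusted p = 0.00921). The irradiated value passed with DESeq2 (-0.82, adjusted p = 0.0499) and in a fit of these 2 states alone (-0.89, adjusted p = 0.00115). The etoposide call was lost in 9 of 11 fits that left out a library, namely without any cycling library, RNA-seq or Ribo-seq, or without etoposide replicate 1 or 2 of either type, where the value stayed between -1.13 and -0.97 and the adjusted p rose to 0.069 to 0.283. The thapsigargin call was lost without thapsigargin RNA replicate 1 (-0.66, adjusted p = 0.0547), and that comparison crosses the gene lists. GGH had a TE change of -1.40 ± 0.52 in thapsigargin cells, which did not pass (adjusted p = 0.0571), and passed without thapsigargin RNA replicate 2 (-1.67, adjusted p = 0.0395) and with these states fitted alone (-1.43, adjusted p = 0.0373).

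**Figure D5:**
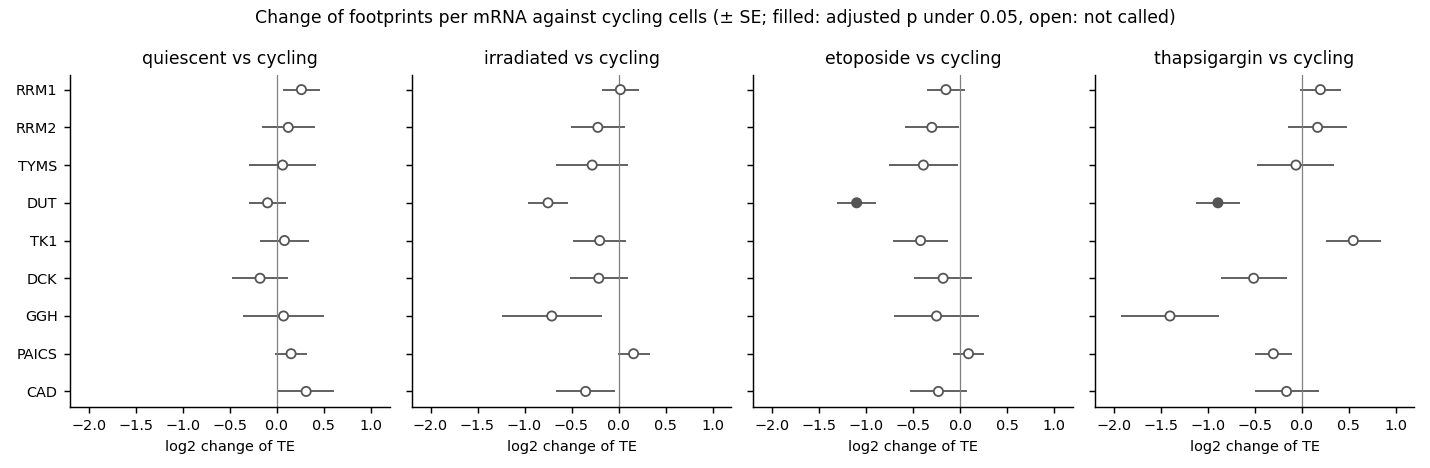
Log2 change in translational efficiency (footprints over mRNA) with its standard error for each enzyme gene against cycling cells, by state; filled points were called, open points were not, and 0 means that footprints and mRNA moved alike. DUT lies at -0.10 in quiescent, -0.75 in irradiated, -1.10 in etoposide and -0.89 in thapsigargin cells.

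Other genes of nucleotide metabolism were called in both directions. Of 59 other genes of these pathways 58 were tested in RNA. In quiescent cells 0 rose and 6 fell, in irradiated cells 9 rose and 14 fell, in etoposide cells 7 rose and 17 fell, and in thapsigargin cells 4 rose and 5 fell, with medians of -0.09, -0.18, -0.14 and 0.03. The called shares of 10.3, 39.7, 41.4 and 15.5% compare with 15.6, 34.9, 34.5 and 24.5% of all genes. Called lower were 10.3, 24.1, 29.3 and 8.62%, beside 10.4, 18.8, 17.8 and 12.8% of all genes. Called higher were 0, 15.5, 12.1 and 6.9%, beside 5.18, 16.2, 16.8 and 11.7%. In both senescent states the share called lower thus lay above that of all genes, a difference that was not tested. In footprints 56 were tested: 4 rose and 8 fell, 8 rose and 18 fell, 7 rose and 25 fell, and 14 rose and 7 fell in the same order of states. These are 21.4, 46.4, 57.1 and 37.5%, beside 22.4, 40.6, 33.9 and 44.6% of all genes. Lower were 14.3, 32.1, 44.6 and 12.5%, beside 14.2, 21.6, 17.1 and 23.6% of all genes. Higher were 7.14, 14.3, 12.5 and 25%, beside 8.15, 19, 16.8 and 21.1%. IMPDH2, whose counts depend on the gene list as given above, is among the genes counted lower in etoposide RNA and in thapsigargin footprints. In RNA, folate supply genes (10, with RRM2B) had 3 lower and 1 higher in irradiated cells and 6 lower and 1 higher in etoposide cells, and in footprints 5 and 6 lower, with 1 higher in each. Purine synthesis genes (12) had 3 lower in irradiated and 6 lower in etoposide cells in both assays. The 4 pyrimidine genes had 2 and 1 lower in RNA and 2 and 3 lower in footprints. Salvage genes and kinases had 4 higher and 2 lower of 18 in RNA in each senescent state, and of 16 in footprints 3 higher in each, with 4 lower after irradiation and 5 lower after etoposide. Breakdown and clean-up genes (14 tested of 15) had 3 higher and 4 lower in irradiated cells in both assays, and in etoposide cells 1 higher in both, with 2 lower in RNA and 5 lower in footprints. Of all genes, 18.8 and 17.8% were called lower in RNA in irradiated and etoposide cells, and 21.6 and 17.1% in footprints. Called higher were 16.2 and 16.8% in RNA and 19 and 16.8% in footprints. With at most 18 genes a list, the shares of these lists are coarse and were not tested against all genes.

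Named genes of these lists are those called in the same direction in both senescent states with a log2 RNA change of at least 1, besides RRM2B, TK2, DGUOK and SAMHD1, which are given whatever their values. SHMT1, which loads folate with the carbon unit that TYMS uses, was at 12.6 to 15.2 CPM in cycling RNA and at 2.69 to 4.02 in the senescent libraries, and its log2 changes were -1.88 ± 0.17 and -2.18 ± 0.17 in irradiated and etoposide cells (edgeR adjusted p = 2.98e-06 and 5.35e-07). SLC19A1, the reduced folate carrier, fell by 1.78 and 1.28 (adjusted p = 0.000306 and 0.00288). DTYMK, which phosphorylates the dTMP that TYMS and TK1 make, fell by 1.34 and 1.31 (adjusted p = 1.63e-05 and 1.77e-05). PFAS, of purine synthesis, fell by 1.2 and 1.46 (adjusted p = 0.000355 and 6.98e-05), and NUDT1, which clears oxidised purine nucleotides, fell by 1.02 and 1.47 (adjusted p = 0.00577 and 0.000445). The genes that rose by this rule, besides RRM2B, were AK4 and ADSS1. AK4, a mitochondrial adenylate kinase, was at 2.56 and 2.86 CPM in cycling cells against 18.6 to 29.2 CPM in senescent ones, a log2 rise of 2.86 ± 0.24 and 3.21 ± 0.24 (adjusted p = 1.25e-06 and 3.04e-07). ADSS1, of adenine nucleotide synthesis, rose by 1.34 and 1.22 (adjusted p = 0.00568 and 0.00969).

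Across the 13 RNA-seq libraries the members' pairwise Pearson correlations ran from 0.15 to 0.99 (36 pairs, median 0.735), and across the 14 Ribo-seq libraries from 0.47 to 0.98 (median 0.77). These points share states, so the values describe the pattern over states. RRM2 and TK1 correlated at 0.99 in RNA. Among the genes most like each member over the 13 libraries, of all genes tested, were FANCA, SHCBP1 and TCF19 for RRM2 (r = 0.992, 0.992 and 0.990), FOXM1, NCAPG2 and PLK1 for TK1 (0.993, 0.991 and 0.990) and RAD51AP1, DYNC2I2 and SRSF3 for RRM1 (0.987, 0.985 and 0.984). For TYMS they were TIMELESS and SMC1A (0.967 and 0.951), for PAICS H2AZ2, STMN1 and NASP (0.987, 0.970 and 0.969) and for DCK MASTL, PI4K2B and CENPK (0.978, 0.958 and 0.957). For GGH they were SNX25, ARL6IP1 and NEMP1 (0.981, 0.980 and 0.972), for CAD SF1, SETD1A and CCDC97 (0.978, 0.967 and 0.966) and for DUT SCCPDH and RPA3 (0.952 and 0.931).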

How the data were processed

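Raw read counts per gene, deposited by the authors in the layout of the STAR aligner, were used as they stand: the reverse-strand count column for RNA-seq and the forward-strand count column for Ribo-seq, as the kits in the labels' protocols require. The opposite strand held 5.41 to 10.7% of the counts in RNA-seq and 3.56 to 4.22% in Ribo-seq. Multimapping reads (9.43 to 66.9% of a library, the highest shares being in thapsigargin Ribo-seq) and unmapped reads sit on summary lines and were left out of library sizes. STAR 2.7.10b, DESeq2 1.36.0, bcl2fastq and hg38 are named in the submitters' processing notes, with no roles given, and the annotation is not given in the sources used here. The labels' protocols and design text differ on the RNase time, and one characteristic calls all thapsigargin libraries protected fragments, so titles were used. Promoters, coordinates and overlaps come from RefSeq (GRCh38.p14).

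Protein-coding genes (19303 IDs by symbol) that passed filterByExpr entered the edgeR fits (edgeR 4.0.16, R 4.3.3): 13289 in RNA, 11762 in Ribo-seq and 11711 for TE. The two-sided quasi-likelihood F test used TMM scaling, robust dispersion and all 5 states in each fit, and p-values were adjusted by Benjamini-Hochberg over all genes tested. The fits were tested on simulated counts with the same dispersion for every gene and state. Such counts cannot show how a spread that differs between states affects the calls. Alternatives were DESeq2 1.42.0, RLE scaling, no filter, both strands, a replicate block, the compared groups alone, and each library left out. Scaling sets the average gene to about 0, so a change common to all genes could not be seen. Replicates differed by more than sampling noise, and nothing in the labels says that they are separate cultures, so p-values measure the spread between these libraries. The labels give same-numbered replicates. In Ribo-seq same-numbered quiescent and cycling libraries deviated together (r = 0.229, 0.339 and 0.437), as did quiescent and irradiated ones (0.157, 0.248 and 0.258). Cycling and irradiated ones did not all do so (-0.104, 0.091 and 0.307), so whether the numbers pair libraries is not known. The values given come from the fit without the block. With the block 7 members were called in quiescent against cycling footprints and 6 in irradiated against quiescent footprints, as without it.

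All members are named, with other pathway genes by the rule stated beside them. A few other genes that the rules name are not reported here. The members and lists were chosen with earlier results of these data known.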

Additional observations from a re-analysis of the deposited data

Results flagged for a closer look

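These 6 differences between irradiated and etoposide senescent cells were picked because the edgeR test called them (n = 3 libraries a state). Their passing it thus adds no support. Of all genes, 22.6% were called in RNA and 22.5% in footprints. Leaving out a library ended the RNA call of TK1 in 5 of 6 fits, of PAICS in 4 and of GGH in 2. It ended the footprint call of DUT in 4 of 6 fits and of GGH in 1, and that of TK1 held. In RNA, TK1 differed by 0.76 and PAICS by 0.36 on the log2 scale, both higher in irradiated cells. GGH RNA differed by -1.05, lower in irradiated cells. In footprints, TK1 differed by 0.83 and DUT by 0.50, higher in irradiated cells, and GGH by -1.63.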

How the results depend on the processing

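The 131 tests of the members followed here are all those in RNA and footprints, and in TE those of DUT and of GGH in thapsigargin cells. Over these and 1539 settings, 1423 kept direction and side of the threshold, 64 lost a call, 26 gained one and 26 changed sign, the last all in values without a call. All 9 members stayed lower in footprints in both senescent states against cycling cells with any library left out.

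Sign changes touched TYMS in thapsigargin RNA (both strands -0.18, replicate block -0.06), TK1 there (compared groups alone 0.01), TYMS in thapsigargin footprints (DESeq2 -0.02, RLE -0.02, compared groups alone -0.02, no filter -0.09) and DCK footprints between senescent states (-0.01 with no filter and with the groups alone). With a library left out, sign-changing ranges were -0.16 to 0.27 for CAD in quiescent RNA, and in thapsigargin RNA -0.80 to 0.55 for TYMS, -0.02 to 0.23 for RRM1, -0.31 to 0.22 for TK1, -0.08 to 0.38 for DCK, -0.07 to 0.44 for RRM2, -0.50 to 0.17 for GGH and -0.07 to 0.90 for CAD. They were -0.25 to 0.19 for TYMS in thapsigargin footprints, and -0.11 to 0.17 for DCK and -0.05 to 0.27 for RRM2 in footprints between senescent states.

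Fitting the compared groups alone gave 853 genes called for quiescent RNA, 1506 for thapsigargin RNA, 6022 for etoposide footprints, 4135 for footprints between senescent states and 1053 for thapsigargin TE (2 members). DESeq2 called 2 members in thapsigargin RNA. For TE against cycling, where edgeR called 1, 6 and 8 genes in quiescent, irradiated and etoposide cells, DESeq2 called 6, 32 (1 member) and 40, no filter 2 (quiescent) and 14 (etoposide), RLE scaling 0 (quiescent), and the groups alone 0, 758 (1 member) and 28. The replicate block gave 0, 3 and 13, and 0 members in etoposide cells. The cause was not tested.

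The replicate numbers were not taken as pairs, since same-numbered libraries did not all deviate together (RNA between states r from -0.483 to 0.811). Same-numbered RNA-seq and Ribo-seq libraries of etoposide cells did (r = 0.068, 0.469 and 0.215), as did those of cycling cells (0.110 and 0.130). With the block, footprints of CAD in thapsigargin cells (adjusted p = 0.051) and TE of DUT in etoposide (-1.01, adjusted p = 0.305) and thapsigargin cells (-0.79, adjusted p = 0.0535) lost their calls, and TE of GGH in thapsigargin cells gained one (-1.33, adjusted p = 0.0135). The block changed no other call among the 131 tests followed.

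Leaving out a library gave these ranges of genes called in RNA: 707 to 2242 in quiescent, 2778 to 3903 in irradiated, 2611 to 3993 in etoposide and 1591 to 3405 in thapsigargin cells against cycling (0 to 2 members), 1440 to 2814 for irradiated against quiescent (2 to 4 members) and 1841 to 2313 between senescent states (0 to 2 members). In footprints they were 1559 to 2933 for quiescent against cycling, 939 to 2388 for irradiated against quiescent and 1500 to 2044 between senescent states (1 to 3 members). In TE they were 0 to 3, 1 to 5, 5 to 8 (0 to 1 members) and 1558 to 3772 (0 to 2 members) for quiescent, irradiated, etoposide and thapsigargin cells. GGH rests on 12 to 14 footprints per irradiated library, which limits the precision of its values there.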
